A study of Mus musculus with 4 samples.

Results

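Lysosomal hydrolases and the membrane and sorting proteins that serve them were compared between the pseudopodia and the cell bodies of migrating mouse fibroblasts. The set held 42 genes, chosen by name and with earlier results of these data known. They were taken out of the 18194 genes for which the array's annotation gave at least 1 probe set with a single gene symbol. All 42 were on the array, with 92 such probe sets. In the order of their roles they were 13 proteases, 13 glycosidases, 3 sulfatases, 6 enzymes and cofactors of lipid and thioester breakdown, 4 lysosomal membrane proteins and 3 genes of mannose 6-phosphate sorting. A filter on dim probe sets kept 71 of the 92, which measured 36 of the 42 genes.

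The cells were NIH/3T3, an established line of mouse embryo fibroblasts, grown in 10% calf serum and starved of serum overnight. All groups shared the same treatment. The cells spread for 2 h on a porous membrane of 24 mm diameter coated with fibronectin, and lysophosphatidic acid (LPA), a serum phospholipid that attracts fibroblasts, was then supplied from below at 150 ng/ml for 1 h. The protrusions that had passed through the pores formed the pseudopodia group and the material left above formed the cell body group, with n = 2 arrays each. Both fractions were fixed for 10 min in 0.3% formaldehyde and heated at 70 °C for 45 min to reverse crosslinks before the RNA was isolated. The labels describe the samples of a group as independent and do not say how the cultures were separated, so p-values measure only the spread between these arrays. Cells without LPA were not analysed here. The comparison asks which RNAs are relatively more or less abundant in protrusions than in the cell body.

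Lysosomes are acidic organelles that break down proteins, sugar chains and lipids. Their soluble hydrolases are made on the rough endoplasmic reticulum, receive a mannose 6-phosphate tag in the Golgi and are carried onward by mannose 6-phosphate receptors, and a part of them is secreted. Fibroblasts are a classical source of such secreted enzymes, and procathepsin L is a major secreted protein of mouse fibroblast lines. Many lysosomal genes carry an E-box, the core of the element bound by the transcription factor TFEB, near their start.

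Each array gave a signal for 45101 probe sets, and the median signal lay between 29.8 and 33.3. Differences below are pseudopodia minus cell body on log2(signal + 32), ± the SE from limma, with Benjamini-Hochberg adjusted p over 22519 probe sets and a threshold of 0.05. Across all of these, 747 probe sets (3.32%) were lower and 243 (1.08%) higher in pseudopodia. A gene is represented by its brightest kept probe set, and by that measure 276 of 10962 genes (2.52%) were lower and 142 (1.3%) higher. Of 10 fibroblast markers, such as collagens and vimentin, 9 were kept and their median signal was 12170 or more on every array; 1 of them was lower and none higher. Macrophage markers, checked because macrophages are rich in lysosomes, had a median signal of 16.8 to 43.6 per array, and their summed signal was 763 and 790.3 in cell bodies, against 643 and 685 in pseudopodia. Of the 10 macrophage markers 5 were kept, and none was called either way by limma. Markers of epithelium and of adipocytes and muscle had median signals of at most 72.4 and 17.6 on any array, and none of them was called. Cd68 stands both among the macrophage markers and in the list of further lysosomal membrane proteins described later.

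Of the 36 lysosomal genes measured, 10 were lower in pseudopodia relative to total signal (27.8%, against 2.52% of all genes), none was higher (against 1.3%) and 26 were not called. The 10 were Lgmn, Naglu, Neu1, Man2b1, Gla, Psap, Tpp1, Ctsa, Ctsl and Ctsd, with folds of cell body over pseudopodia from 1.70 to 3.92. The median difference over the 36 genes was -0.75, where that over all 10962 genes was 0.014, and 34 of the 36 differences were negative (33 after quantile normalization and 35 with scaling on hybridization controls, spiked-in RNAs, an alternative added after seeing the data). Both pseudopodia arrays lay below both cell body arrays in 28 genes (77.8%), against 25.2% of all genes, and none of the 36 lay above, against 27.4%. The 36 genes were brighter than most, with a median cell body signal of 1555, against 329 over all genes. The shares of all genes, here and below, were not matched for signal, and the part of brightness in the counts was not tested. The fractions are protrusions and cell bodies of the same cell line. A lower value is a lower share of the fraction's RNA, not fewer molecules per cell.

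**Figure D1:**
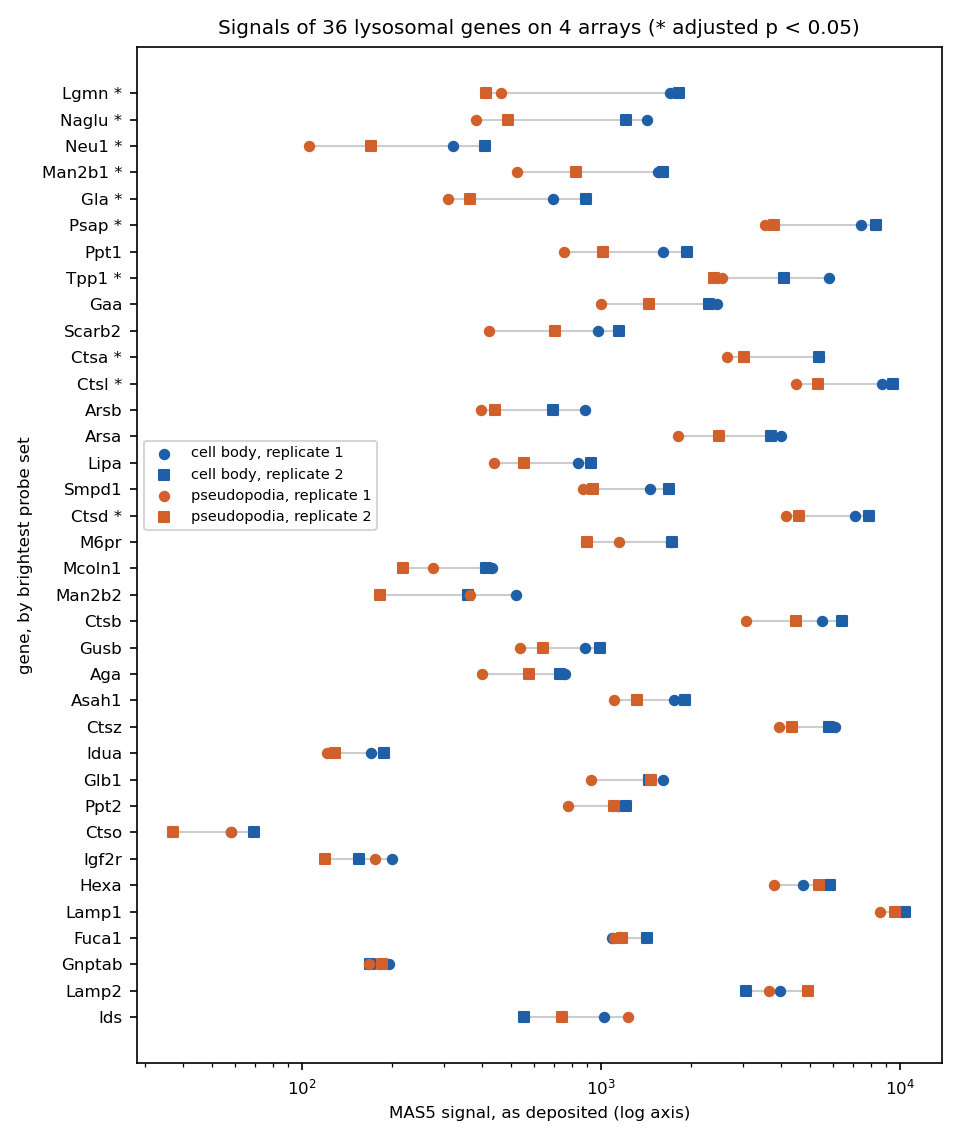
MAS5 signal (log axis) of the brightest kept probe set of each of 36 lysosomal genes on the 4 arrays, with circles for replicate 1 and squares for replicate 2, blue for cell bodies and orange for pseudopodia; grey lines span each gene's values. The genes are ordered by difference, from Lgmn (-1.97) to Ids (0.33), asterisks mark the 10 lower genes, and the colours are apart in 28 of 36.

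The count rested on few arrays. Leaving out either cell body array left 0 of the 36 genes past the threshold (14 to 17 at an unadjusted p under 0.05), while leaving out pseudopodia replicate 1 or 2 gave 18 and 23 lower genes, where 9.83% and 7.26% of all genes were then lower. In each of these fits the lone array of a fraction is assumed to vary like the other fraction, whose arrays leave 1 residual degree of freedom. Without the variance trend in limma 0 were called, among the members and among all probe sets. Without the filter on dim probe sets 2 of 42 genes were lower, against 0.264% of all genes. The median over the genes measured lay between -0.84 and -0.64 in every fit that left out 1 array. With the replicate number, which marks a shared scan day, as a block, 25 of 36 genes were lower and none higher, where 9.72% of all genes were lower and 7.71% higher. The 15 genes that the block added were Ppt1, Gaa, Scarb2, Arsb, Arsa, Lipa, Smpd1, M6pr, Mcoln1, Man2b2, Ctsb, Gusb, Aga, Asah1 and Ctsz.

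Within the replicate 1 pair of arrays the median difference of the 36 genes was -0.77, and within the replicate 2 pair -0.67, where all genes had medians of 0.027 and 0.006. A sign of RNA quality is the ratio of 3′ to 5′ signal of the actin control. It was 1.55 and 1.89 in cell bodies, against 1.77 and 3.41 in pseudopodia. The fractions thus overlapped, and pseudopodia replicate 2 stood apart. Dividing the ratio in pseudopodia by that in cell bodies gave 1.14 for replicate 1 and 1.81 for replicate 2, and for the Gapdh control 1.04 and 1.06. The part of RNA quality in the lysosomal differences was not tested.

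**Figure D2:**
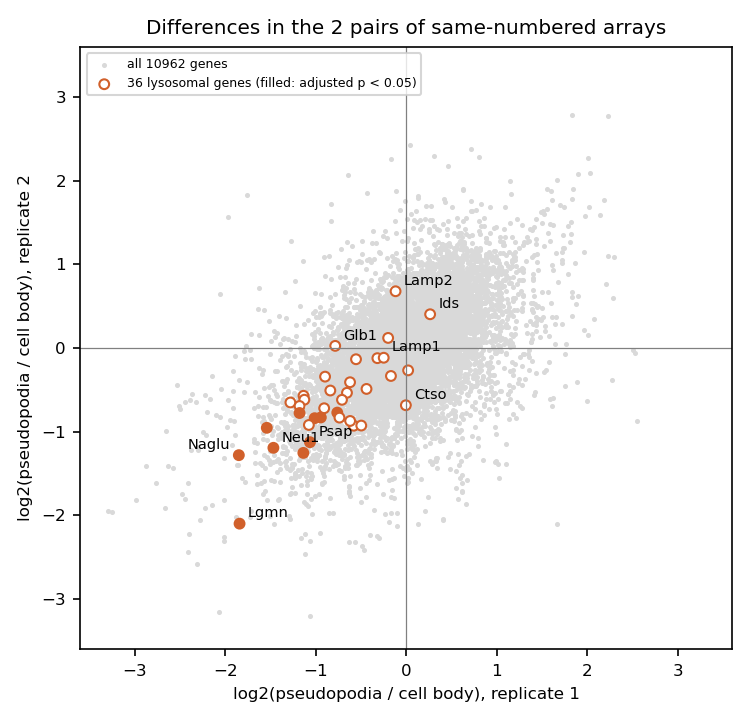
Difference between pseudopodia and cell body (log2, on log2(signal + 32)) in the replicate 1 pair of arrays (x axis) against that in the replicate 2 pair (y axis), for 10962 genes (grey points) and 36 lysosomal genes (orange circles, filled where lower). The lysosomal genes lie mostly in the lower left, with medians of -0.77 and -0.67, and Lgmn lies lowest in replicate 2 at -2.10.

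The start regions of the genes were examined because TFEB targets share a known sequence. In RefSeq promoter windows (build GRCm38.p6, 250 bases before to 50 after a start), the E-box CACGTG, which reads the same on both strands, was searched for alone. It occurred in 13 of the 37 lysosomal genes with a window (35.1%) and in 2187 of 27025 genes overall (8.09%). Among the 10 lower genes 6 held it, and among 22 kept genes that were not called 6 held it. The median GC content was 58.2% in the windows of the set and 52.7% over all genes. Lysosomal genes were known beforehand to carry the E-box often. A match is a run of letters and no evidence of binding, and its relation to the difference between fractions was not tested. The 150 bases before the start are shown for the 2 genes with the most negative differences and for Lamp1, which holds 4 copies and was not called. Capitals mark the E-box. The stretches are chr12:102439093-102439242 on the minus strand for Lgmn, the downstream of its 2 windows, chr11:101069944-101070093 on the plus strand for Naglu, and chr8:13159011-13159160 on the plus strand for Lamp1.
Lgmn: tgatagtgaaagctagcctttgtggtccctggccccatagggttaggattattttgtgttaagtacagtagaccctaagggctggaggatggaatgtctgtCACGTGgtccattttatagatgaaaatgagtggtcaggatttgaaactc
Naglu: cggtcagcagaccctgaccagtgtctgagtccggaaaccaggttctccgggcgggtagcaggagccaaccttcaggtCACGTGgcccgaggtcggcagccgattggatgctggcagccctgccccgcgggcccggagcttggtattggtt
Lamp1: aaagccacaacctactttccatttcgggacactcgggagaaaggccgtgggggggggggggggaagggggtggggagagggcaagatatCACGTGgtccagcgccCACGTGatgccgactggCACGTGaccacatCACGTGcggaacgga

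The single E-box of Lgmn begins 49 bases before the start and that of Naglu 73 bases before it. The copies of Lamp1 begin 61, 45, 28 and 15 bases before the start. Igf2r and Mcoln1 hold 2 copies each and were not called, and Gla, Ctsd and Ctsa hold 2 copies each and were lower. Ctsl holds 1 copy, and Neu1, Man2b1, Psap and Tpp1 hold none in their windows.

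Among the proteases, 5 of the 8 genes measured were lower (against 2.52% of all genes), and all 8 differences were negative with a median of -0.83. Lgmn encodes legumain, which cuts after asparagine and matures several cathepsins. The cell body arrays read 1702 and 1829, against 463 and 414 for pseudopodia. The fractions were far apart against the spread within each, at 3.92-fold less in pseudopodia (-1.97 ± 0.20, adjusted p = 0.0131), the most negative difference in the set. Tpp1, tripeptidyl peptidase, whose loss causes a childhood neuronal ceroid lipofuscinosis, gave 5799 and 4121 in cell bodies, against 2553 and 2398 in pseudopodia. Here the cell body arrays differed from each other more than the pseudopodia arrays did, and the groups did not overlap (-0.98 ± 0.20, adjusted p = 0.0442). The dimmer kept probe set of Tpp1 stood at -0.57 without passing (adjusted p = 0.171).

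Ctsa encodes a carboxypeptidase that also protects the sialidase Neu1 and beta-galactosidase (Glb1) in a complex. It gave 5375 and 5392 in cell bodies, against 2657 and 3008 in pseudopodia (-0.93 ± 0.16, adjusted p = 0.0307). A dimmer kept probe set of Ctsa stood at -0.69 without passing (adjusted p = 0.326). Ctsl, the cysteine protease cathepsin L, gave 8711 and 9516 against 4519 and 5346 (-0.89 ± 0.16, adjusted p = 0.0323). Cathepsin D, an aspartic protease, is encoded by Ctsd, whose signal was 7091 and 7880.3 in cell bodies, against 4176 and 4609.7 in pseudopodia (-0.77 ± 0.16, adjusted p = 0.0428). By the brightest probe sets of all 3 cathepsin genes, the replicates of a fraction lay close together and the pseudopodia arrays were the low ones.

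The remaining measured proteases were not called by their brightest probe sets. The cysteine protease gene Ctsb differed by -0.67 ± 0.22 (adjusted p = 0.124) and the carboxypeptidase gene Ctsz by -0.52 ± 0.16 (adjusted p = 0.107), with fractions apart in both. A dimmer probe set passed in each. For Ctsb it read 3079 and 2839 in cell bodies, against 1091 and 769.5 in pseudopodia (-1.67 ± 0.22, adjusted p = 0.0198). For Ctsz it was of a design that can match more than 1 transcript, and it read 2452 and 2473 against 1226 and 1010.4 (-1.13 ± 0.19, adjusted p = 0.028). The remaining kept probe set of Ctsz stood at -0.585 without passing. The probe sets of these genes thus shared a sign and differed in size. Ctso, a cysteine protease with signals from 37.2 to 69.5, differed by -0.34 (adjusted p = 0.596) and was near the dim end of the range. Ctsc, Ctsf, Ctsh, Ctsk and Ctss were not kept. Together with the glycosidase Manba, the 6 genes not kept had 10 probe sets with signals between 1.4 and 29.7 on every array. Ctss and Ctsk are best known from macrophages and osteoclasts.

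Glycosidases trim sugar chains from glycoproteins, glycolipids and glycosaminoglycans. Of 12 measured, 4 were lower (against 2.52% of all genes) and all 12 differences were negative, with a median of -0.69. Naglu, the alpha-N-acetylglucosaminidase of heparan sulfate breakdown, gave 1424 and 1214 in cell bodies, against 383 and 490 in pseudopodia (-1.57 ± 0.22, adjusted p = 0.022). The fold was 2.96, second in the set to that of Lgmn. Neu1, which removes sialic acid, gave 321 and 409.7 against 106 and 170.2 (-1.33 ± 0.29, adjusted p = 0.0474). The replicates of Neu1 were less close, and its adjusted p lay just inside the threshold. Its dimmer kept probe set stood at -0.15 (adjusted p = 0.885). There the fractions overlapped, and the pairs differed in sign, with -0.84 in replicate 1 and 0.54 in replicate 2.

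Man2b1, lysosomal alpha-mannosidase, gave 1556 and 1614 in cell bodies, against 524 and 826 in pseudopodia (-1.25 ± 0.25, adjusted p = 0.0413). Its dimmer probe set read 131 and 132 against 10.3 and 6.9 (-2.59 ± 0.33, adjusted p = 0.0193). Pseudopodia were low by both, and the pseudopodia readings of the second are at the level of dim probe sets. Gla, alpha-galactosidase A, the enzyme lacking in Fabry disease, gave 695 and 892 in cell bodies, against 308 and 365 in pseudopodia (-1.20 ± 0.23, adjusted p = 0.0379). A dimmer kept probe set of Gla stood at -0.775 with overlapping fractions (adjusted p = 0.398). By their brightest probe sets, all 4 lower glycosidases had folds of cell body over pseudopodia between 2.29 and 2.96.

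Gaa, the acid alpha-glucosidase of glycogen breakdown, was called by 1 of its 2 kept probe sets. Its brightest probe set, of a design that can match more than 1 transcript, read 2451 and 2296 against 999.7 and 1456 (-0.97 ± 0.22, adjusted p = 0.057). The second read 2366 and 2267 against 731 and 1009 and passed (-1.41 ± 0.22, adjusted p = 0.0242). Idua, alpha-L-iduronidase, showed the same order of its probe sets, with -0.46 for the brightest (adjusted p = 0.302) and -1.74 for a dimmer one that passed (adjusted p = 0.0442) from signals of 71.8 and 73.8 against 8.6 and 12.6. Gusb, beta-glucuronidase, differed by -0.67 (adjusted p = 0.119) and Aga, aspartylglucosaminidase, by -0.62 (adjusted p = 0.183), with fractions apart in both.

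By their brightest probe sets, the other glycosidases overlapped between fractions. Hexa, the alpha chain of beta-hexosaminidase and the glycosidase with the brightest probe set, gave 4753 and 5859 in cell bodies, against 3807 and 5387 in pseudopodia. The lower cell body array lay below the higher pseudopodia array, and the difference was -0.22 ± 0.21 (adjusted p = 0.598). Glb1, beta-galactosidase, gave 1615 and 1449 against 930.3 and 1476, so that its 2 pairs disagreed, with -0.79 in replicate 1 and 0.03 in replicate 2. Man2b2, a further alpha-mannosidase, differed by -0.71 (adjusted p = 0.284) and Fuca1, alpha-fucosidase, by -0.12 (adjusted p = 0.78). The dimmer kept probe sets of Fuca1 stood at -0.33 and -0.89, with fractions apart and without passing. Of the complex of Ctsa, Neu1 and Glb1, the first 2 were thus lower and Glb1 was not called. Whether Glb1 differed from them was not tested.

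None of the 3 sulfatases was called. Arsa, which removes sulfate from sulfatide, gave 4002 and 3719 in cell bodies, against 1814 and 2498 in pseudopodia (-0.85 ± 0.20, adjusted p = 0.0596). Arsb, which acts on dermatan and chondroitin sulfate, differed by -0.87 ± 0.22 (adjusted p = 0.0708). Both had fractions apart, and with the replicate block both were lower (adjusted p = 0.00146 and 0.00626). Ids, iduronate 2-sulfatase, gave 1024 and 556 in cell bodies, against 1232 and 741 in pseudopodia. In each pair of same-numbered arrays the pseudopodia array was the higher, although the fractions overlapped, and the difference was 0.33 ± 0.35 (95% interval -0.47 to 1.14, adjusted p = 0.628). Ids was the only member whose kept probe sets were all positive, at 0.33, 0.46 and 0.63, and none of the 3 passed. The sign of its brightest probe set turned without pseudopodia replicate 1 (-0.03) or cell body replicate 2 (-0.10).

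Of the 6 genes of lipid and thioester breakdown, 1 was lower (against 2.52% of all genes). All 6 differences were negative with fractions apart, where 25.2% of all genes had pseudopodia arrays below. Psap, the precursor of the saposins that present sphingolipids to hydrolases, gave 7434 and 8333 in cell bodies, against 3548 and 3808 in pseudopodia. That is 2.14-fold less in pseudopodia (-1.10 ± 0.16, adjusted p = 0.0223). A dimmer probe set of Psap passed as well, with 2475 and 2796 against 921 and 520.1 (-1.90 ± 0.28, adjusted p = 0.0238). Ppt1, palmitoyl-protein thioesterase, gave 1613 and 1946 against 757 and 1021 and missed the threshold narrowly (-0.998 ± 0.224, adjusted p = 0.0526). Its second probe set passed, at 656 and 707 in cell bodies, against 302 and 245 in pseudopodia (-1.27 ± 0.22, adjusted p = 0.0302). The dimmest kept probe set of Ppt1 stood at -0.511 without passing (adjusted p = 0.372). Lipa, the acid lipase of cholesteryl esters, Smpd1, acid sphingomyelinase, and Asah1, acid ceramidase, differed by -0.81, -0.79 and -0.60 by their brightest probe sets. Their adjusted p lay between 0.0651 and 0.124. The dimmer kept probe set of Smpd1 differed little between fractions (-0.087, adjusted p = 0.871). That of Lipa stood at -1.003 without passing (adjusted p = 0.0624). Ppt2, a thioesterase related to Ppt1, stood at -0.34 (adjusted p = 0.425).

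**Figure D3:**
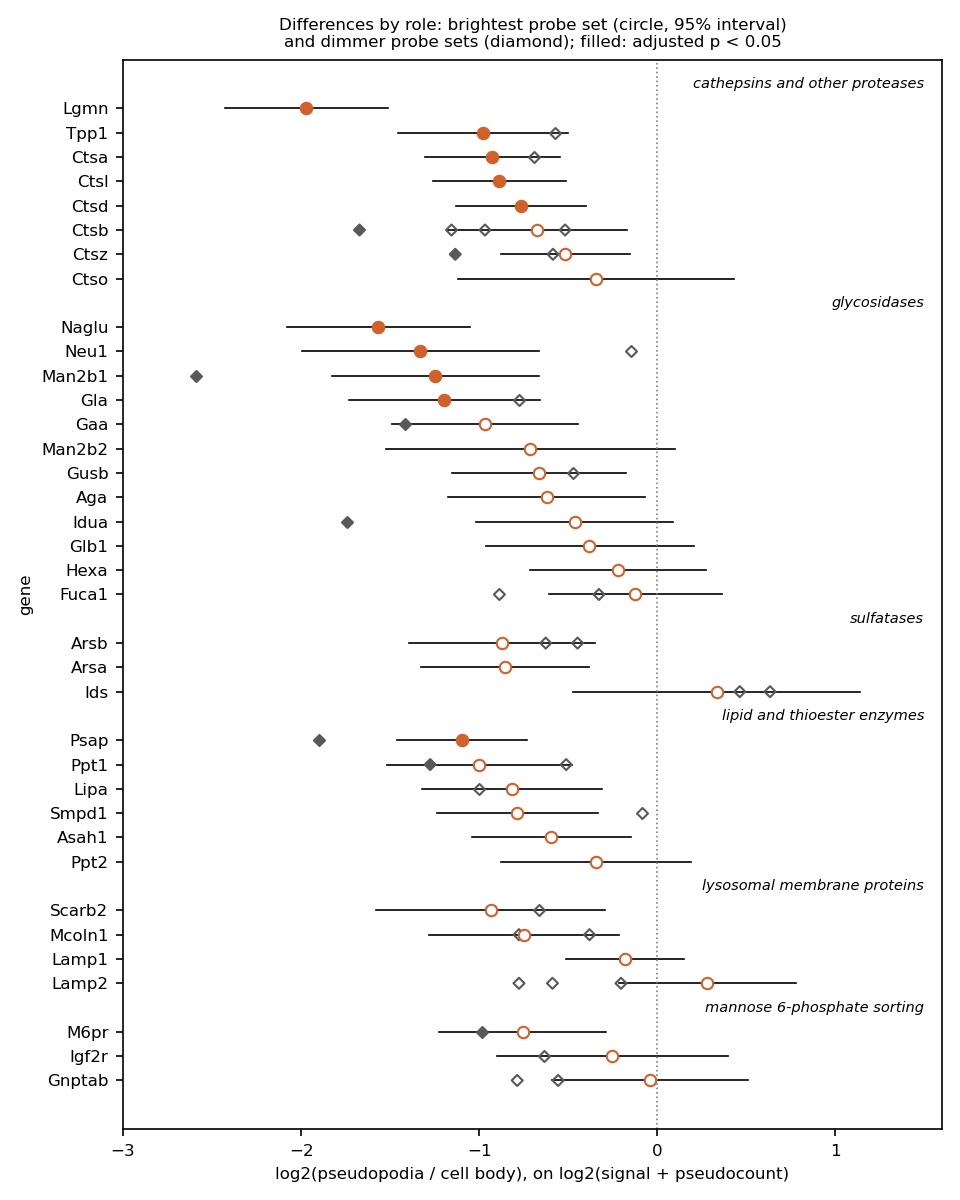
Difference between pseudopodia and cell body (log2, on log2(signal + 32)) of the 36 lysosomal genes by role. Circles are the brightest kept probe sets with the 95% interval of the limma fit, diamonds the dimmer kept probe sets, and filled symbols have an adjusted p under 0.05; proteases centre on -0.83 and the membrane proteins on -0.46, and Ids alone has all its symbols to the right of 0.

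None of the 4 membrane proteins was called. Lamp1, a heavily glycosylated protein that lines the lysosome, gave 10255 and 10461 in cell bodies, against 8624 and 9654 in pseudopodia. The arrays were apart, yet the difference was small (-0.18 ± 0.14, 95% interval -0.51 to 0.15, adjusted p = 0.504), so a change of 1 log2 unit lies outside its interval. Lamp2, its relative in chaperone-mediated autophagy, gave 3971 and 3068 against 3657 and 4923 by its brightest probe set (0.28 ± 0.21, adjusted p = 0.492). Replicate 2 alone was higher in pseudopodia, and the 3 other kept probe sets of Lamp2 stood at -0.20, -0.59 and -0.78 without passing. Lamp2 was the only member whose kept probe sets differed in sign. Its value was -0.20 with single-transcript probe sets, -0.32 as a mean over probe sets and -0.05 with scaling on hybridization controls. Its RNA has alternative last exons, and which of them each probe set covers was not analysed here.

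Scarb2, the carrier of glucocerebrosidase to the lysosome, gave 976 and 1152 in cell bodies, against 422 and 706 in pseudopodia (-0.94 ± 0.28, adjusted p = 0.0994). Mcoln1, a calcium channel of the lysosomal membrane, gave 432 and 413 against 275 and 218 (-0.75 ± 0.23, adjusted p = 0.11). Both had fractions apart, and their differences were near the median of the set. Those of the brightest probe sets of Lamp1 and Lamp2 were not, while the dimmer kept ones of Lamp2 ranged from -0.20 to -0.78.

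Of the 3 sorting genes none was called by its brightest probe set, and their median of -0.25 was the one nearest 0 among the roles. M6pr, the cation-dependent mannose 6-phosphate receptor, gave 1725 and 1733 in cell bodies, against 1149 and 903 in pseudopodia (-0.75 ± 0.20, adjusted p = 0.0781). Its second probe set passed, with 780.3 and 764 against 395 and 371 (-0.98 ± 0.20, adjusted p = 0.0437). Igf2r, the large receptor that also binds insulin-like growth factor, stood at -0.25 (adjusted p = 0.651). Gnptab, which encodes the catalytic chains of the enzyme that starts the tag, gave 195 and 169.7 in cell bodies, against 168 and 186 in pseudopodia. These overlapped, at -0.04 ± 0.24 (adjusted p = 0.947; 0.12 after quantile normalization), and its dimmer probe sets stood at -0.56 and -0.79 without passing.

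Several probe sets of a gene gave a further reading of the same RNA in the same arrays. Of the 71 kept probe sets of members, 67 were negative, where 9894 of all 19352 kept probe sets with 1 gene symbol were negative. Of the 71, 18 were lower (25.4%, against 3.32% of all probe sets) and none was higher (against 1.08%). Among the 23 members with more than 1 kept probe set, 21 had only negative ones. The same share over all genes was not computed, and probe sets of a gene are not independent. The median range within a gene was 0.45, and the widest were 1.34 for Man2b1, 1.28 for Idua and 1.18 for Neu1. By any kept probe set 16 of 36 genes were lower (44.4%, against 4.53% of all genes). The 6 that this added were Ctsb, Ctsz, Gaa, Idua, Ppt1 and M6pr. A difference below -0.5 was found in 25 of 36 genes (69.4%, against 15.3% of all genes), and one below -1 in 6 (16.7%, against 3.69%).

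Other genes of the pathway were taken from lists by role. Of 31 further lysosomal enzymes and cofactors 20 were measured, with a median of -0.43. Of the 20, 1 was lower and none higher, against 2.52% and 1.3% of all genes. That was Plbd2, a phospholipase B-like hydrolase, at 1134 and 952 in cell bodies against 531 and 453 in pseudopodia (-1.06 ± 0.21, adjusted p = 0.0421). Epdr1, an ependymin-related lysosomal protein, stood at -1.11 (adjusted p = 0.0571), Hgsnat, which acetylates heparan sulfate ends for Naglu, at -0.89 (adjusted p = 0.0679), and the phospholipase Pla2g15 at -0.91 (adjusted p = 0.0689). With the replicate block 8 of the 20 were lower, against 9.72% of all genes. Among those not called, Npc2, a soluble carrier of cholesterol, had both pseudopodia arrays above both cell body arrays, at 12536 and 13993 against 10086 and 11803 (0.28 ± 0.15, adjusted p = 0.322); it was singled out after its values were seen.

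Of 29 further lysosomal membrane proteins 25 were measured, and 3 were lower and none higher, against 2.52% and 1.3% of all genes. The median was -0.78, where that of the 36 members was -0.75. Within the replicate 1 pair it was -0.92 and within the replicate 2 pair -0.44, where the members had -0.77 and -0.67. Spns1, a lysophospholipid transporter, gave 764 and 675 in cell bodies, against 197 and 155 in pseudopodia (-1.95 ± 0.23, adjusted p = 0.0184). Lmbrd1, needed for export of cobalamin from lysosomes, gave 1133 and 1195 against 351 and 378 (-1.63 ± 0.20, adjusted p = 0.0184). Clcn7, the chloride-proton exchanger, gave 892 and 935 against 306 and 484 (-1.21 ± 0.26, adjusted p = 0.0463). The differences of these multispanning proteins lay within the range of the lower hydrolases, but they were named because they passed the same threshold. Of the 25 differences, 22 were negative and 3 positive, where 5345 of all 10962 genes were negative. The positive ones included Tmem192 at 0.39, and Laptm4b stood at -0.02. The brightest probe sets of Lamp1 and Lamp2 were at -0.18 and 0.28, and their contrast with the 3 lower genes was not tested. Tmem175, a lysosomal potassium and proton channel, stood at -1.06 (adjusted p = 0.0503), and with the replicate block 14 of the 25 were lower, against 9.72% of all genes.

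Factors of sorting and lysosome biogenesis, most of them cytosolic, gave counts near the background. Of 26 measured 1 was lower and none higher, against 2.52% and 1.3% of all genes. There were 14 negative and 12 positive, where 5345 of all 10962 genes were negative, and the median was -0.04 (0.05 after quantile normalization). Both pseudopodia arrays lay below both cell body arrays in 5 and above in 8, against 25.2% and 27.4% of all genes. The lower gene was Gnptg, at 605 and 649 in cell bodies, against 276 and 246 in pseudopodia (-1.22 ± 0.21, adjusted p = 0.0307). Gnptg encodes the soluble chain of the tagging enzyme, so that within this enzyme Gnptg was lower and Gnptab was not called; the difference between them was not tested. Vps35, the core of the retromer coat that retrieves receptors from endosomes, gave 1143 and 1225 in cell bodies, against 1985 and 1917 in pseudopodia (0.71 ± 0.18, adjusted p = 0.0684; with the replicate block 0.00617). Bloc1s2, of a complex that positions lysosomes, stood at 0.53 (adjusted p = 0.147) and Vps41, of the tethering complex HOPS, also at 0.53 (adjusted p = 0.175). The transcription factor genes Tfeb, Tfe3 and Mitf stood at 0.07, -0.16 and -0.07.

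The proton pump of lysosomes (V-ATPase) has a cytosolic part, V1, and a part within the membrane, V0. Of 8 V1 genes measured none was called, where 2.52% of all genes were lower and 1.3% higher. Of the 8, 5 were positive, and the median was 0.21. Atp6v1g1, a stalk subunit, gave 7899 and 9792 in cell bodies, against 11455 and 16433 in pseudopodia (0.64 ± 0.20, adjusted p = 0.122). Atp6v1f, Atp6v1d and Atp6v1c1 stood at 0.41, 0.47 and 0.31 with adjusted p between 0.274 and 0.41. Of 8 V0 and accessory genes measured 1 was lower (against 2.52% of all genes), 7 were negative, and the median was -0.25. Atp6v0a2 gave 428 and 488 in cell bodies, against 224 and 194 in pseudopodia (-1.08 ± 0.23, adjusted p = 0.0442). The accessory gene Atp6ap1 stood at -1.05 (adjusted p = 0.0572), Atp6v0a1 at -0.97 (adjusted p = 0.146) and Atp6v0b at -0.27 (adjusted p = 0.346). The V1 median was -0.12 and the V0 median -0.57 with scaling on hybridization controls, where that of all genes was -0.29, and no test compared the 2 parts. With the replicate block 3 V0 genes were lower, against 9.72% of all genes, and 2 V1 genes, Atp6v1f and Atp6v1g1, were higher, against 7.71%.

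**Figure D4:**
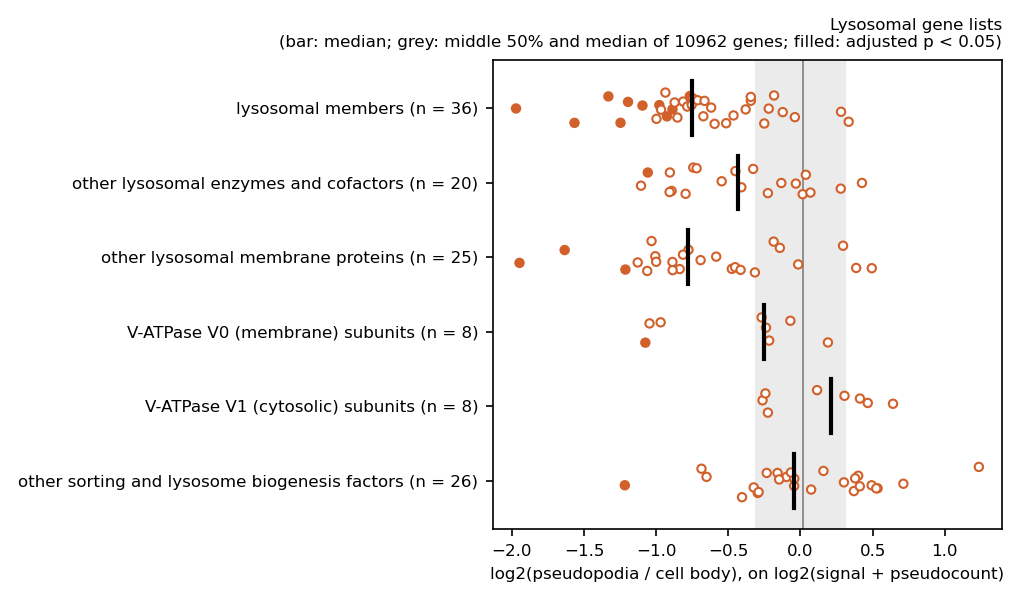
Difference between pseudopodia and cell body (log2, on log2(signal + 32)) of every measured gene in 6 lists; each circle is a gene, black bars are list medians, filled circles are lower genes, and the grey band and line are the middle 50% and the median of 10962 genes. The medians are -0.75 for the lysosomal members, -0.43 and -0.78 for other enzymes and membrane proteins, -0.25 for V0, 0.21 for V1 (-0.12 with scaling on hybridization controls) and -0.04 for the sorting and biogenesis factors (0.05 after quantile normalization).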

How the data were processed

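The values deposited by the authors are linear intensities, MAS5 signals per the submitters' processing notes; the MAS5 version and target are not given in the sources used here. MAS5 subtracts mismatch signal, so dim probe sets are noisy. Each array had a 2% trimmed mean of 250, found from the values, so differences are relative to total signal. Per the file headers, 1 chip lot and 1 scanner were used on 2 days, and the arrays numbered alike shared a day. Of 45101 probe sets, 34958 had 1 gene symbol in the platform annotation; where these lie within genes was not examined.

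Every array was rescaled (trimmed mean 500) and log2(signal + 32) taken, so folds of dim probe sets are understated. The brighter 22519 probe sets, those whose mean log2 value reached the median of 45037 that are not controls, were tested with limma 3.58.1 in R 4.3.3 (lmFit, eBayes with trend, two-sided, no block), after a test on simulated data. With 2 arrays a group, 0.3333 is the smallest p of an exact permutation test, and none was run. Same-numbered arrays are paired by their shared scan day, and a block on that number was an alternative; replicate differences of the 2 fractions correlated at r = 0.243 over probe sets, which are not independent. Per-array values are given for members past the threshold, for the member of each role with the brightest probe set and for further members chosen after their values were seen; other lists name up to 4 genes by the moderated statistic, and any others were also chosen after their values were seen. The members and lists were chosen with earlier results of these data known. The results were recomputed under 16 alternatives. Promoter windows and sequences are from RefSeq; all 42 members are in its gene table.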

Additional observations from a re-analysis of the deposited data

How the results depend on the processing

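No member was higher under any of the 16 alternatives, the median difference of the members was negative in all 16, and none of the called differences changed sign. Of the members not called, Gnptab, Lamp2, Hexa, Ids and Fuca1 changed sign under at least 1. Without the filter on dim probe sets 137 probe sets were lower and 39 higher, 2 members, 2 genes of the other lysosomal lists and 0 V-ATPase genes were lower, and the members' median was -0.67. Without the variance trend every count was 0. With the replicate block, which uses the pairing by scan day and leaves 1 residual degree of freedom, 2546 probe sets were lower and 1541 higher, 25 members were lower, the other lists had 24 lower and 3 higher, and the V-ATPase lists 3 lower and 2 higher. Genes lower in the other lists numbered 3 after quantile normalization, 8 with single-transcript probe sets, 9 with p adjusted over genes (V-ATPase 2), and 10, with 1 higher, as means over probe sets (V-ATPase 2), against 5 and 1. Scaling on hybridization controls, chosen after seeing the data, moved the median of all genes to -0.29 and that of the members to -1.07, with 55 probe sets higher and 1510 lower, and 20 members, 14 genes of the other lists and 2 V-ATPase genes lower. Leaving out 1 array gave 0 to 2652 probe sets lower and 0 to 1304 higher, 0 to 23 members lower, 0 to 19 lower and 0 to 2 higher in the other lists, 0 to 3 V-ATPase genes lower and 0 to 3 higher, and medians of -0.84 to -0.64; both fits without a cell body array gave 0 calls, and the cause was not tested. Each of the 10 lower members kept its call in 9 to 13 of the 16.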
